A study of Saccharomyces cerevisiae S288C with 71 samples.

Results

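The comparison concerns what loss of RAS2 did to the transcriptome of a yeast strain that already lacked COQ2, in log phase. It uses 4 of the 71 libraries of the series: 2 of the single mutant coq2 and 2 of the double mutant coq2 ras2, all at 0 h, chosen by their strain and time labels and read over all genes of the deposited table. Both strains are Saccharomyces cerevisiae S288C and both carry the COQ2 deletion, so by their labels the deletion of RAS2 is what separates them. Whether they differ elsewhere in the genome is not given. Cultures grew at 30 C in shaken flasks in yeast nitrogen base with ammonium and 2% glucose, and the labels call the 0 h sample log phase. The other groups used are wt and its ras2 mutant, and the single mutant cox4 and its cox4 ras2 derivative, with 2 libraries each at 0 h, as well as coq2 and coq2 ras2 at 12 and 16 h. For some genes, levels at 0 h are also given from rts1, tco89, coq2 rts1, coq2 tco89, cox4 rts1 and cox4 tco89. These single and double mutants lack RTS1 or TCO89 in place of RAS2. The series title concerns nutrient signalling pathways whose loss suppresses the death of electron transport chain mutants in starvation. The 2 libraries of a strain are labelled technical replicates. A p-value here reflects the spread between such libraries, pooled over the 36 groups of the series, and no variation between cultures. The sources used here do not say whether a strain is 1 clone.

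COQ2 encodes a prenyltransferase of coenzyme Q synthesis, and cells without it cannot pass electrons to complex III and live by fermentation. RAS2 encodes a small GTPase that, in its GTP-bound form, activates adenylate cyclase. The cyclic AMP that results frees the catalytic subunits of protein kinase A from their inhibitor Bcy1, and the kinase then favours growth on glucose while it keeps the transcription factors Msn2 and Msn4 and the kinase Rim15 in check. Msn2 and Msn4 bind the stress response element in front of many genes for stress protection and storage carbohydrates. Iron uptake genes are under Aft1, and phosphate uptake genes under Pho4.

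Levels are in TPM (the share of a library, corrected for length), with the libraries in the order of the deposited table. Fold changes are on the log2(TPM + 1) scale, which understates the change of genes with low levels, and a gene is said to have risen or fallen where the limma adjusted p was under 0.05 and the change at least 2-fold. TPM gives no read counts, so the depth of the libraries is unknown. TPM is a share of the RNA, not an amount per cell, and in bulk RNA a change in every cell and a change in the share of cells in another state cannot be told apart. The 2 libraries of a strain correlated across genes at r = 0.995 in coq2 and 0.996 in coq2 ras2. Genes of alpha cells summed to 5855 and 5857 TPM in coq2 and to 4432 and 4306 TPM in coq2 ras2, and the 7 a-cell genes to between 40.4 and 55.4 TPM, with no marker of either type called.

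The deletions read as labelled. COQ2 (YNR041C, R64 chromosome XIV, 700541 to 701659) stood at 0.1 TPM, the floor of the table, in all 4 libraries. RAS2 (YNL098C, chromosome XIV, 439602 to 440570) stood at 233 and 240 TPM in coq2 and at 0.12 and 1.97 TPM in coq2 ras2. The gene just upstream of RAS2, PLS1 (YNL097C-B, chromosome XIV, 440797 to 440919), stood at 24.7 and 29.8 TPM in coq2 and at 215 and 236 TPM in coq2 ras2, a log2 change of 3.01 ± 0.66 (SE, limma adjusted p = 0.00047). PLS1 was also 2.81 and 2.90 log2 units higher in ras2 than in wt and in cox4 ras2 than in cox4, so it was higher with the deletion in the 3 pairs compared. The other neighbours were not called: OCA1 changed by -0.35, PHO23 by -0.12, and MVD1 and MRX15 beside COQ2 by -0.22 and -0.29.

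One coq2 ras2 library stood apart from the other for a small set of genes. Among genes of at least 10 TPM, 11 were over 2-fold higher in the second library than in the first, against 3 the other way. The wt pair was one-sided too, with 9 genes over 2-fold higher in its first library and 0 in its second. In the coq2 pair these counts were 4 and 0. Either way, 1 gene differed so in ras2, 4 in cox4 and 3 in cox4 ras2. In coq2 ras2 the hexose transporter gene HXT6 read 6.12 and 84.3 TPM and the plasma membrane stress protein gene HSP30 18.3 and 134 TPM. The cell wall iron gene FIT3 read 44.1 and 332 TPM, its relative FIT2 120 and 420 TPM, and the zinc transporter gene ZRT1 22.3 and 71.2 TPM. HXT6 is 99.8% identical to HXT7, and the pair summed to 615 and 612 TPM, so its gap was not a gap of the pair. Of the 11 genes, 7 were called in the comparison with coq2, where 4.06% of all genes tested were called. The 11 were picked by a high value in the second library, which is part of that comparison, so the 4.06% is not a like base for them. A higher mean in coq2 ras2 at 16 h than in that library was seen for 10 of the 11. The share of all genes for which this holds was not worked out. RAS2 itself was 1.97 TPM in the second library and 0.12 TPM in the first. It read 0.56 and 0.24 TPM in ras2 and 0.61 and 0.23 TPM in cox4 ras2. The deleted COX4 also differed between libraries, at 0.25 and 1.53 TPM in cox4 and 2.33 and 0.12 TPM in cox4 ras2. The part of the second coq2 ras2 library in the results was not tested, and values without it are given where a result rests on it.

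Loss of RAS2 in coq2 raised far more genes than it lowered. Of 5766 genes tested, 201 rose (3.49% of those tested) and 33 fell (0.572%), together 234 (4.06%). RAS2 is 1 of the 33. The median log2 change over all genes was 0.00. The risen genes had a median fold of 2.77 and reached 31.6-fold, with 58 at 4-fold or more and 23 at 8-fold or more. Their summed level went from 1.90% and 1.79% of all TPM in coq2 to 7.37% and 7.58% in coq2 ras2. The 33 fallen genes took 1.34% and 1.36% of TPM in coq2 and 0.466% and 0.511% in coq2 ras2. On the adjusted p alone, 894 genes were higher (15.5%) and 663 lower (11.5%), together 27% of those tested. The libraries of the groups did not overlap for 200 of the 201 risen genes and for all 33 fallen ones, and they did not overlap for 67.3% of the genes tested. Without the second coq2 ras2 library 210 rose and 34 fell.

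**Figure D1:**
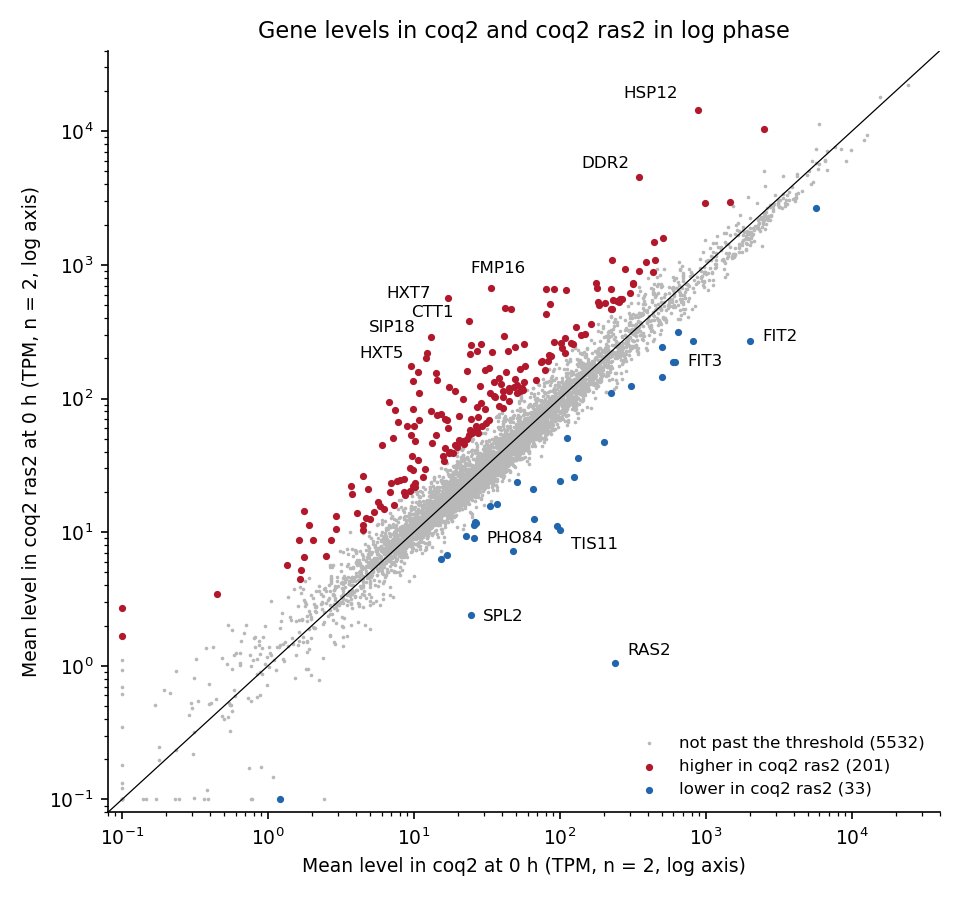
Mean level of each gene tested in coq2 (horizontal axis) and coq2 ras2 (vertical axis) at 0 h, in TPM on log axes, with the line of equal levels; red points are the 201 genes that rose and blue points the 33 that fell. HXT7 and HSP12 lie far above the line, while RAS2 lies far below it at a mean of 1.05 TPM and TIS11 and PHO84 lie below it near 10 TPM.

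The coq2 strain reached higher levels of most of the risen genes later in its own time course. In coq2 at 12 h, 154 of the 201 stood above the 0 h level of coq2 ras2 in both libraries of each group and 38 stood below it, where 29.4% of all genes tested stood above and 60.9% below. At 16 h the counts were 139 and 51, where 28.2% of all genes stood above and 63.2% below. Of the 33 fallen genes, 21 stood above that level in coq2 at 12 h and 10 below, and at 16 h 22 above and 10 below. These 33 were picked for low values in coq2 ras2 at 0 h, so a place above that level is favoured. RAS2, which coq2 ras2 lacks, is among the 33.

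The Ras and protein kinase A list had a median log2 change of 0.12 over 29 measured genes. The genes named here, RAS2 apart, did not pass the threshold. RAS1, the other Ras GTPase gene, stood at 55.8 and 52.2 TPM in coq2 and 62.3 and 57.3 TPM in coq2 ras2, a change of 0.14 ± 0.11 (SE, limma adjusted p = 0.35). Values under 2-fold were seen for the stress activator MSN4 (0.95), the kinase YAK1 (0.72), the Ras inhibitor IRA2 (0.61), adenylate cyclase CYR1 (0.41) and the kinase inhibitor BCY1 (0.37). The stress activator MSN2 and the kinase RIM15 stood at 0.08 and 0.02.

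General stress response genes were the group with the most members risen. Of 40 measured, 30 rose and none fell, against 3.49% of all genes risen, and the median log2 change was 2.17 against 0.00 over all genes tested. HSP12 (YFL014W, chromosome VI, 107256 to 107585), a small membrane-associated heat shock protein gene, went from 866 and 902 TPM to 14169 and 14445 TPM, a 16.2-fold rise (log2 4.02 ± 0.10 SE, limma adjusted p = 3.9e-31). At that level it alone took over 1% of the TPM of each coq2 ras2 library. CTT1 (YGR088W), the cytosolic catalase gene, went from 25.3 and 22.7 to 394 and 364 TPM, a 15.2-fold rise. DDR2 (YOL052C-A), a gene induced by many stresses, went from 357 and 342 to 4421 and 4710 TPM. SIP18 (YMR175W), a hydrophilin gene tied to survival of drying, went from 11.6 and 14.7 to 194 and 386 TPM, with the higher value in the library that stood apart and no overlap between strains. GND2 (YGR256W), a minor 6-phosphogluconate dehydrogenase gene, rose 12.3-fold from 6.17 and 7.3 to 92.8 and 95.1 TPM. In each of these genes the lower coq2 ras2 library was several times above the higher coq2 library. RTN2, a reticulon gene, and MSC1 rose 10.3- and 10.0-fold. The 10 members not called lay between -0.01 (DDR48) and 1.00 (SED1), among them HSP104 at 0.87 and the Hsp70 genes SSA3 and SSA4 at 0.16 and 0.32. The count was 30 without the second coq2 ras2 library and ranged from 30 to 31 as each library was left out.

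The stress response element, AGGGG, is the site where Msn2 and Msn4 are known to bind. Promoters are shown for HSP12, CTT1 and DDR2, the largest stress list rises that hold AGGGG, and for SIP18, which does not. Each is the 300 bases that end 50 bases before the start codon, from the R64 genome (RefSeq), read 5′ to 3′ on the strand of the gene. Capitals mark AGGGG, or CCCCT where it lies on the other strand. HSP12 is chrVI:106906-107205 on the plus strand with 2 matches, CTT1 is chrVII:654284-654583 on the plus strand with 1, and DDR2 is chrXV:231806-232105 on the minus strand with 3. SIP18, chrXIII:610666-610965 on the plus strand, is the largest rise of the whole list over both libraries (log2 4.29), and its window holds no match. That rank rests on the library that stood apart. SIP18 read 194 and 386 TPM in coq2 ras2, and by the first library its rise was smaller than that of HSP12.
HSP12: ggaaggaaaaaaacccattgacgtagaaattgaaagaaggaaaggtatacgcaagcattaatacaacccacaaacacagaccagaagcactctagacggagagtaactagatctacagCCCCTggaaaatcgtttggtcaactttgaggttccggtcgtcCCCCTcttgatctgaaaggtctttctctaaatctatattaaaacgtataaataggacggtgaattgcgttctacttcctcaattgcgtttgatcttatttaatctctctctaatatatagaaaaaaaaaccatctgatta
CTT1: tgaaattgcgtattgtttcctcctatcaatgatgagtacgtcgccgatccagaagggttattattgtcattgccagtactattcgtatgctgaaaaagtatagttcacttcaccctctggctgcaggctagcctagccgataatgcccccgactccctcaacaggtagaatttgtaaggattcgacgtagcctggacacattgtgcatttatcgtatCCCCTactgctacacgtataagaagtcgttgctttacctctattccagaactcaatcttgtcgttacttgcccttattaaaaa
DDR2: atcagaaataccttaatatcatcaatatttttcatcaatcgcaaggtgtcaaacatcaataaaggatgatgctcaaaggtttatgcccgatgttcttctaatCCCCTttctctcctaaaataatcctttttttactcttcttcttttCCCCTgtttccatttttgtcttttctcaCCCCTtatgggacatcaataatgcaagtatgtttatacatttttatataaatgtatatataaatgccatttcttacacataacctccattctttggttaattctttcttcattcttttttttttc
SIP18: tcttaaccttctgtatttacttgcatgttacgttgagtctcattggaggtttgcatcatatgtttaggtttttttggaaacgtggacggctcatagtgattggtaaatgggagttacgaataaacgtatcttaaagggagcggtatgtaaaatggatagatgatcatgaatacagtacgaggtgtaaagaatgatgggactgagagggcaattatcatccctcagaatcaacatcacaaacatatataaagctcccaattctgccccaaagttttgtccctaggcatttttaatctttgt

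The motif was common in front of the risen genes. AGGGG on either strand stood in the window of 153 of the 201 risen genes (76.1%), of 7 of the 33 fallen genes (21.2%) and of 1344 of all 5754 windows read (23.4%). At least 2 matches stood in 34.3% of the windows of risen genes and in 3.98% of all windows. Of the 30 stress genes that rose, 27 held it (90%), as did 33 of all 40 genes of that list (82.5%). The PAC element GATGAG stood in 17.4% of windows of risen genes and 19.3% of all windows, the RRPE core AAAATTT in 18.4% and 25.6%, and the Gcn4 site TGACTC in 5.47% and 8.24%. These shares are descriptions and were not tested, and a match does not show that a factor binds there.

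Among genes for the storage carbohydrates trehalose and glycogen, 11 of 21 measured rose and none fell, against 3.49% of all genes risen. Their median log2 change was 1.24. The 11 included genes for the synthesis of both and for the breakdown of glycogen, but no trehalase gene. GPH1 (YPR160W), the glycogen phosphorylase gene, went from 7.33 and 7.63 TPM to 86.6 and 77.5 TPM, a 9.79-fold rise. TSL1 (YML100W), a regulatory subunit gene of the trehalose synthase complex, went from 43.4 and 44.4 to 240 and 211 TPM, and PGM2 (YMR105C), phosphoglucomutase, from 38.1 and 29.9 to 237 and 212 TPM. The enzyme genes TPS1 and TPS2 rose 2.37- and 3.64-fold, the glycogen synthases GSY1 and GSY2 2.68- and 2.78-fold, the branching enzyme GLC3 3.34-fold, the debranching enzyme GDB1 3.73-fold, UDP-glucose pyrophosphorylase UGP1 2.93-fold, and GIP2, a putative regulator of a glycogen phosphatase, 5.02-fold. The neutral trehalase gene NTH1 read 44 and 40 against 75.8 and 73.4 TPM, a change of 0.82 that did not pass the fold threshold. The count of risen members was 11 with each of the 4 libraries left out in turn.

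Glucose uptake and entry into glycolysis changed by isoform. HXT7 (YDR342C, chromosome IV, 1154216 to 1155928), a high-affinity hexose transporter gene, was the largest rise of all, from 20.4 and 14.1 TPM to 609 and 528 TPM (31.6-fold, log2 4.98 ± 0.14 SE, limma adjusted p = 8.8e-30). HXT5 (YHR096C), a transporter of slow-growing cells, went from 12.7 and 11.5 to 202 and 203 TPM. Of 24 hexose transport and sensing genes 5 rose and none fell, with a median of 0.11, against 3.49% of all genes risen. Beside HXT7 and HXT5 the risen ones were HXT6, HXT4 (2.39-fold) and HXT2 (2.15-fold, and 0.95 on the log2 scale without the second coq2 library). HXT6 is 99.8% identical to HXT7, so the split of reads between the pair is uncertain. Summed, HXT6 and HXT7 stood at 25.3 and 21.3 TPM in coq2 and at 615 and 612 TPM in coq2 ras2. HXT6 alone rested on the library that stood apart, with a log2 change of 1.82 over both libraries and 0.03 without it. HXT7 was lower in that library (609 and 528 TPM), so the call of HXT6 cannot be told apart from the split of reads. The low-affinity transporter genes HXT1 and HXT3 changed by -0.55 and 0.08. Among the enzymes that phosphorylate glucose, HXK1 (YFR053C) went from 81 and 80.2 to 684 and 644 TPM and glucokinase GLK1 (YCL040W) from 269 and 293 to 955 and 911 TPM. HXK2 (YGL253W), the main hexokinase on glucose, went the other way, from 654 and 637 to 328 and 298 TPM, a change of -1.04 that was -0.97 and no longer called without the second coq2 ras2 library. The glyceraldehyde phosphate dehydrogenase gene TDH2 fell from 5650 and 5671 to 2722 and 2599 TPM, and it is 95.8% identical to TDH3. The minor pyruvate decarboxylase gene PDC6 rose from 1.52 and 1.84 to 4.62 and 5.76 TPM. In all, 3 of 21 glycolytic and fermentative genes rose and 2 fell, where 3.49% of all genes rose and 0.572% fell, with a median of -0.14.

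Genes of the respiratory chain stood higher although the strain cannot make coenzyme Q. Over all genes tested 3.49% rose, and 15.5% were higher on the adjusted p alone. Of 20 genes of complexes III and IV and cytochrome c, 6 rose and none fell, with a median log2 change of 0.71, and 17 were higher on the adjusted p alone. CYC7 (YEL039C), the minor cytochrome c isoform, went from 24.7 and 24.2 to 245 and 255 TPM, a 9.87-fold rise. The complex III subunit genes QCR8, QCR10, RIP1 and QCR9 rose 2.55-, 2.14-, 2.07- and 2.01-fold, and COX7 of complex IV rose 2.32-fold from 364 and 269 to 689 and 771 TPM. The main isoform CYC1 read 1197 and 1188 against 1613 and 1659 TPM, a change of 0.46 (limma adjusted p = 0.1). CYC7 apart, the risen genes of these complexes lay at 2.01- to 2.55-fold, and some of these calls were lost without the second coq2 library. Of 17 genes of the tricarboxylic acid cycle 3 rose, all of them subunits of succinate dehydrogenase: SDH1 from 34 and 37.9 to 97.3 and 108 TPM, SDH2 2.88-fold and SDH4 2.07-fold, the last at a log2 change of 0.94 without the second coq2 ras2 library. Of 17 ATP synthase genes the regulators STF2 and STF1 rose, 4.74- and 2.08-fold, and 15 were higher on the adjusted p alone with a median of 0.56. Of 18 genes of the glyoxylate cycle and gluconeogenesis, cytosolic malate dehydrogenase MDH2 (3.95-fold), the activator ADR1 (3.19-fold) and acetaldehyde dehydrogenase ALD4 (2.87-fold) rose. None of the 66 mitochondrial ribosomal protein genes and none of the 10 coenzyme Q genes measured beside COQ2 was called, with medians of 0.08 and 0.30.

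**Figure D2:**
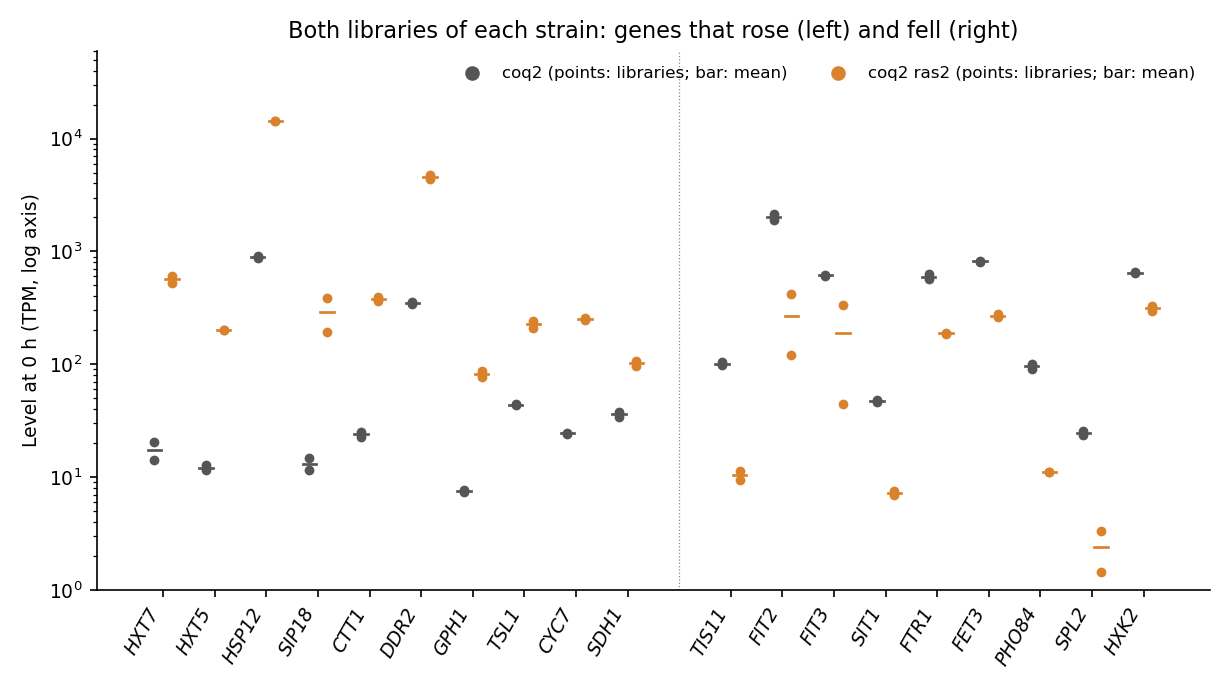
Level in each library of coq2 (grey) and coq2 ras2 (orange) at 0 h, in TPM on a log axis, with a bar at the mean of the 2 libraries, for genes that rose (left of the dotted line) and fell (right). The strains do not overlap in any gene shown, and the 2 coq2 ras2 libraries lie far apart in FIT2 (120 and 420 TPM) and FIT3 (44.1 and 332 TPM).

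Smaller numbers of genes rose in other groups, where 3.49% of all genes tested rose and 0.572% fell. Of 27 redox defence genes 5 rose, namely CTT1 and, at 2.08- to 3.33-fold, GPX1, PRX1, TSA2 and GRX2, which encode peroxidases and a glutaredoxin. PRX1 and TSA2 were just under 2-fold without the second coq2 library (log2 1.00 and 0.96). Of 35 cell wall genes 5 rose and UTR2, a chitin transglycosylase gene, fell 2.03-fold, a call lost without the second coq2 or the first coq2 ras2 library. The risen ones were the secreted glycoprotein gene YGP1 (93.7 and 87.6 to 653 and 667 TPM), SPI1 (81.1 and 80.2 to 352 and 512 TPM), CWP1, DSE1 and PIR3. PIR3 read 28.2 and 61.6 TPM in coq2 ras2 and was at 0.53 on the log2 scale without the second library, and DSE1 was at 0.91 without the second coq2 library. Of 23 cytosolic heat shock chaperones only the small chaperone genes HSP26 (87.3 and 82.7 to 427 and 591 TPM) and HSP42 (2.49-fold) rose, with a median of -0.15. The repressor gene XBP1 rose 5.19-fold and was the 1 gene called among 30 cell cycle genes (3.33%, near the 4.06% of all genes called). The vacuolar protease inhibitor genes TFS1 and PBI2 rose 5.90- and 2.69-fold, the osmotic response gene GCY1 5.16-fold, the metallothionein gene CRS5 3.55-fold, and the nitrogen-repressed genes CAR2 and PUT4 2.71- and 2.64-fold. Outside these lists, the largest rises were FMP16 (YDR070C), from 31.8 and 35.7 to 631 and 709 TPM, CPP3 (YDR034W-B), from 10.7 and 8.37 to 174 and 174 TPM, the eisosome membrane protein gene FMP45 (YDL222C), from 10.2 and 11.2 to 157 and 156 TPM, RTC3, from 43.6 and 40.2 to 472 and 478 TPM, and the stationary phase gene SPG4, from 9.82 and 9.81 to 95.5 and 177 TPM.

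Iron uptake genes made up the largest share of the fallen genes. Of 31 measured 13 fell and none rose, against 0.572% of all genes fallen, with a median log2 change of -0.78. TIS11 (YLR136C, chromosome XII, 415801 to 416658), whose protein speeds decay of mRNAs for iron-using enzymes, went from 104 and 97.5 TPM to 9.51 and 11.2 TPM, a log2 change of -3.17 ± 0.11 (SE, limma adjusted p = 1.9e-26). The cell wall mannoprotein genes for siderophore iron fell as well, with 1 library deciding their size. FIT2 (YOR382W) went from 1894 and 2127 to 120 and 420 TPM, and its change of -3.15 was -4.05 without the second coq2 ras2 library and -2.25 without the first. FIT3 (YOR383C) went from 604 and 623 to 44.1 and 332 TPM, and its change of -2.33 was -3.77 without the second library and -0.88 and not called without the first. FIT1 was not called (0.18). The siderophore transporter genes SIT1, ARN2, ARN1 and ENB1 fell: SIT1 (YEL065W) went from 48.5 and 46.2 to 6.94 and 7.49 TPM, ARN2 from 67.2 and 65.2 to 11 and 14.1 TPM, ARN1 from 132 and 119 to 24.1 and 27.6 TPM, and ENB1 from 104 and 96.1 to 23.3 and 25.2 TPM. The reductive pathway fell less far. FTR1, the iron permease, went from 567 and 630 to 185 and 190 TPM, and FET3 (YMR058W), its ferroxidase partner, from 802 and 826 to 277 and 261 TPM. The reductase genes FRE1 and FRE3 fell 2.67- and 2.31-fold, heme oxygenase HMX1 2.48-fold and the copper pump CCC2, which loads Fet3, 2.15-fold. The activator genes AFT1 and AFT2 stood at -0.82 and -0.06. The vacuolar iron importer gene CCC1, at 0.71, had the largest positive value of the list.

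The promoters of TIS11 and FIT2 are shown in the same window, with capitals for TGCACCC, the core of the site where Aft1 is known to bind, or GGGTGCA on the other strand. They are the 2 largest falls of the list that hold it and were chosen after values were seen. TIS11 is chrXII:416709-417008 on the minus strand with 2 matches and FIT2 is chrXV:1059181-1059480 on the plus strand with 4.
TIS11: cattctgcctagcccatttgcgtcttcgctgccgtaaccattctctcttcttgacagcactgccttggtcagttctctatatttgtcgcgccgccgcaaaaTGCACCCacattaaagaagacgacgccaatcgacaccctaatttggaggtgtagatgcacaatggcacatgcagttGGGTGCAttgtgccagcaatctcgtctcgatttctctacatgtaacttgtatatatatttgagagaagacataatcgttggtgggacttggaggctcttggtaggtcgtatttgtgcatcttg
FIT2: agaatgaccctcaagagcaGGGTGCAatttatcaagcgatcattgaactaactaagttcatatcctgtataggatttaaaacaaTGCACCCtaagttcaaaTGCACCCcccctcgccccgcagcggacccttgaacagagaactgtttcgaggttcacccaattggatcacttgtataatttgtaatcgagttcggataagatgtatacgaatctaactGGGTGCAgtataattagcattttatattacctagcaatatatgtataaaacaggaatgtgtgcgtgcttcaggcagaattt

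TGCACCC stood in the window of 9 of the 13 iron genes that fell (69.2%) and in 16 of all 31 iron genes (51.6%). It stood in 81 of all 5754 windows (1.41%) and in 4 of the 201 windows of risen genes (1.99%).

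Phosphate genes moved in both directions. Of 23 measured 3 fell and 2 rose, where 0.572% of all genes fell and 3.49% rose, with a median of -0.32. PHO84 (YML123C), the high-affinity phosphate transporter gene, went from 100 and 91.4 TPM to 11 and 11.1 TPM (an 8.02-fold fall, limma adjusted p = 5.8e-25), and SPL2 (YHR136C), a regulator of low-affinity phosphate uptake, from 23.5 and 25.5 to 1.43 and 3.36 TPM. The acid phosphatase gene PHO12, 99.7% identical to PHO11, fell 3.01-fold. PHM7 rose 5.83-fold and the phosphatase gene PHM8 2.14-fold. Other large falls were YHB1, the nitric oxide-detoxifying flavohemoglobin gene, from 561 and 447 to 146 and 146 TPM, HBN1 (YCL026C-B), a nitroreductase-like gene, from 141 and 125 to 36 and 35.9 TPM, and the IMP dehydrogenase gene IMD2 (YHR216W), from 194 and 204 to 47.4 and 46.9 TPM. IMD2 has a near-identical copy on chromosome I (96.3%), and its call (limma adjusted p = 0.015) was lost whenever 1 of the 4 libraries was left out, though its change stayed between -2.02 and -2.09. Single members fell in 4 more lists: ARG1 of amino acid synthesis (-1.04), MET8 of sulfate assimilation (-1.18), PDH1 of the retrograde list (-1.04) and SFG1 of the filamentous growth list (-1.13). Leaving out 1 library ended the calls of ARG1 (without the second coq2 library), MET8 (without the first coq2 ras2 library) and PDH1 (without the first coq2 or the second coq2 ras2 library).

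Genes of ribosomes and their assembly had medians below 0, with no member called. Of 132 cytosolic ribosomal protein genes 38 were lower and 1 higher on the adjusted p alone, by which 11.5% of all genes were lower, and the median was -0.22. Ribosome biogenesis genes had a median of -0.35, with 29 of 98 lower and none higher on the adjusted p alone, and the lowest value was -0.70. Subunits of RNA polymerases I and III had a median of -0.31 over 26 genes. Amino acid synthesis genes had a median of -0.37, with 33 of 66 lower on the adjusted p alone, and purine synthesis and one-carbon genes a median of -0.57, with 16 of 23 lower. ARG1 and IMD2, described above, were the members of these 2 lists that fell. No member was called among 33 proteasome genes (median -0.19), 30 TORC1 pathway genes (0.11), 18 beta-oxidation genes (0.22), 27 ergosterol and mevalonate genes (0.02), 10 histone genes (0.31), 21 early meiosis genes (0.29) and 13 zinc response genes (-0.24).

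**Figure D3:**
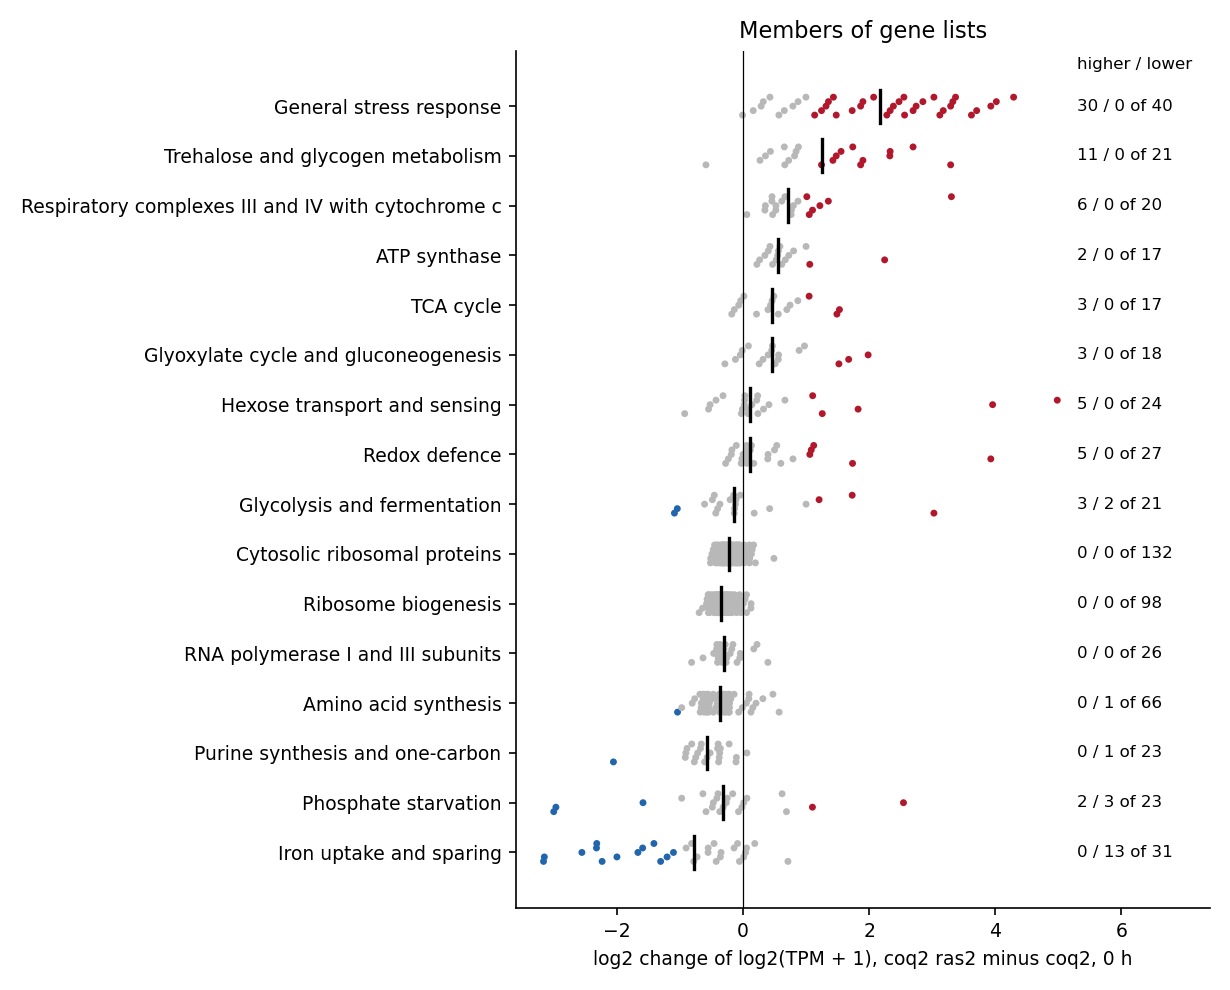
Log2 change in coq2 ras2 against coq2 at 0 h for each member (points) of 16 gene lists, with the list median as a black bar and the counts called higher and lower at the right; red points rose, blue points fell and grey points were not called. The stress list has its median at 2.17 and the iron list at -0.78, while the ribosomal lists form narrow clouds just below 0.

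Most genes that changed after RAS2 loss in coq2 also changed in a strain with COQ2. The ras2 and wt libraries are not among the 4 of the coq2 comparison, so the same change can be read in them separately. In ras2 against wt 207 genes rose (3.59%) and 72 fell (1.25%), together 4.84% of those tested. Of the 201 genes risen in coq2 ras2, 172 also rose there (85.6% of these and 83.1% of the 207), and of the 33 fallen 28 also fell (84.8% and 38.9%). None was called in opposite directions. Across the 5766 genes, which are not independent replicates, the log2 changes correlated at r = 0.927. The 201 risen genes had a median change of 1.47 in coq2 and 1.48 in wt. The stress list had 30 of 40 risen in each background and the iron list 13 and 15 of 31 fallen.

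The direct test of the difference between these changes called few genes: 10 with a more positive change in coq2 (0.173%) and 7 with a more negative one (0.121%), together 17 (0.295%). On the adjusted p alone the counts were 30 (0.52%) and 21 (0.364%), together 51 (0.884%). HSP12 was 440 and 427 TPM in wt and 13463 and 14500 TPM in ras2, so the mutants ended close together while coq2 began higher than wt. The difference of its changes was -0.99 ± 0.14 (SE, limma adjusted p = 7.3e-06), just under 2-fold. FMP16 rose from 19.7 and 21.4 to 972 and 1012 TPM in the wild-type background, more than in coq2 (a difference of -1.26). HSP26 and the membrane protein gene YRO2 also rose more there, with differences of -1.11 and -1.22. The falls of PHO84, ARN2 and HMX1 were smaller in coq2 by 1.29, 1.35 and 1.73 log2 units. HMX1 ended at 117 and 129 TPM in coq2 ras2 and at 38.1 and 40.8 TPM in ras2 from similar starting levels (298 and 315 TPM in coq2, 328 and 333 TPM in wt). PHO84 and ARN2 started lower in coq2 than in wt (ARN2 at 163 and 162 TPM in wt) and ended close together, with ARN2 at 12 and 11.7 TPM in ras2. ZRT1, the high-affinity zinc transporter gene, stood at 173 and 169 TPM in wt and 24.7 and 24.9 TPM in ras2, against 57.4 and 58.8 TPM in coq2 and 22.3 and 71.2 TPM in coq2 ras2. Its difference of 2.21 was 1.40 without the second coq2 ras2 library. DAL5, the allantoate permease gene, fell in ras2 (139 and 120 to 46.9 and 44.4 TPM) and stood at 108 and 91.2 TPM in coq2 and 93.7 and 88.3 TPM in coq2 ras2.

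YIR042C had the largest difference (2.81 ± 0.25 SE, limma adjusted p = 1.1e-10). It stood at 1.61 and 1.91 TPM in coq2 and at 15.3 and 13.6 TPM in coq2 ras2, while the 22 libraries of the other 11 strains at 0 h, the coq2 double mutants among them, ran from 10.2 to 28.1 TPM. The coq2 strain was therefore the one that stood apart in this gene, on chromosome IX near its end (435273 to 435983). The subtelomeric genes YRF1-1 and YHR219W were also among those whose changes differed, but coq2 did not stand apart in them. YRF1-1 read 35.9 and 38.7 TPM in coq2 and 17.6 and 14.8 TPM in coq2 ras2, against 19.8 and 20.7 TPM in wt and 27.6 and 31.3 TPM in ras2, while tco89 was as high as coq2, at 40.5 and 39.2 TPM. YHR219W read 50.4 and 51.6 TPM in coq2 and 22.6 and 24.6 TPM in coq2 ras2, and coq2 tco89 was as high as coq2, at 56.7 and 50.5 TPM. Both have copies of 99% identity or more elsewhere in the genome, so their values cannot be assigned to 1 locus.

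**Figure D4:**
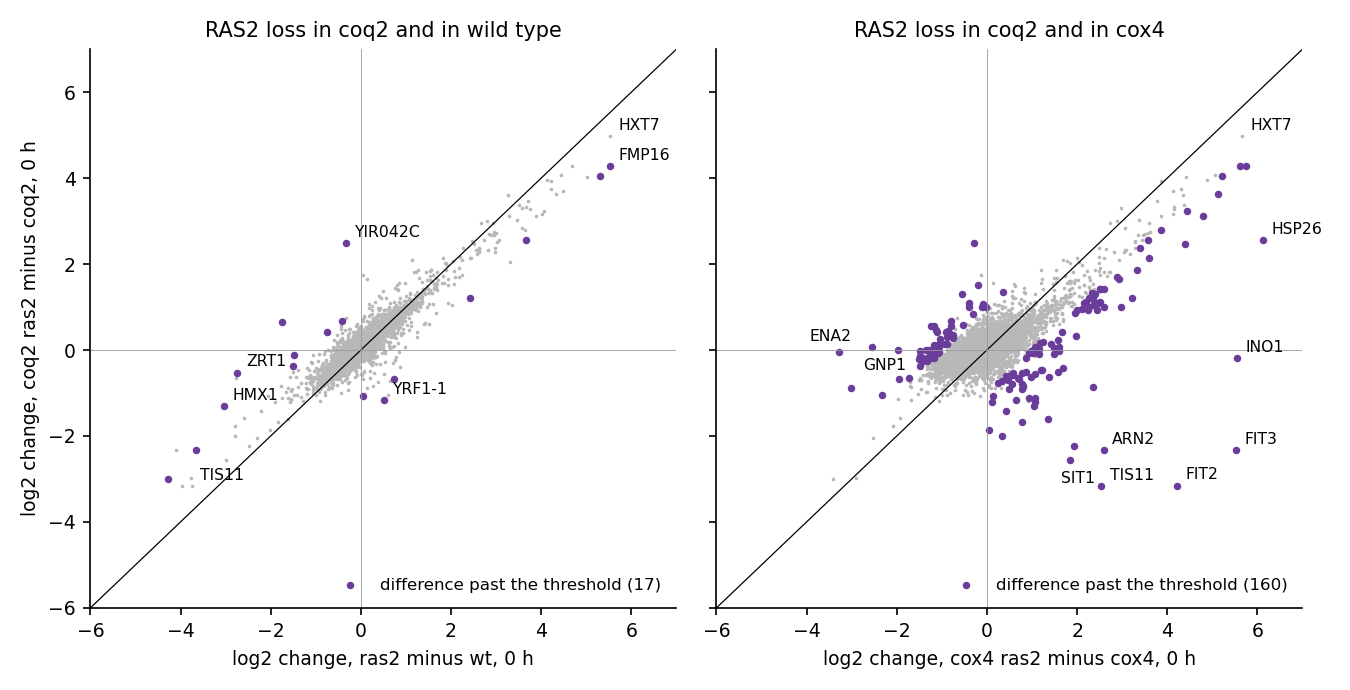
Log2 change on RAS2 loss in coq2 (vertical axes) against that in wild type (left) and in cox4 (right) at 0 h, 1 point per gene without RAS2, with the line of equal changes; purple points are the 17 and 160 genes whose changes differed past the threshold. On the right the iron genes FIT3, FIT2, TIS11, ARN2 and SIT1 lie at positive values in cox4 and negative values in coq2.

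In the cox4 mutant, which has no functional complex IV, stress genes also rose, some of them further than in coq2, and 12 iron genes rose where 13 had fallen in coq2. In cox4 ras2 against cox4 348 genes rose (6.04%) and 230 fell (3.99%), together 10% of those tested. Of the 201 genes risen in coq2 ras2, 170 rose there too (84.6% of these and 48.9% of the 348). Of the 33 fallen, 12 fell there (36.4% and 5.22% of the 230) and 10 rose. Of the 31 iron genes 12 rose and none fell in cox4 ras2, and in the test of the difference 18 were more negative in coq2 and none more positive, where 1.72% of all genes were more negative and 1.06% more positive, together 160 genes (2.77%). On the adjusted p alone 8.22% were more negative and 6.8% more positive, together 15%. TIS11 went from 26.3 and 29 to 172 and 159 TPM in cox4 ras2, a difference of -5.70 ± 0.16 (SE, limma adjusted p = 1.9e-29) from its change in coq2. FIT2 went from 346 and 397 to 6801 and 7062 TPM and FIT3 from 80.1 and 92.5 to 4163 and 3859 TPM, differences of -7.37 and -7.85. ARN2 and SIT1 differed by -4.91 and -4.39, FET3 by -2.94 and FTR1 by -2.46. The cox4 single mutant began from lower levels of these genes than coq2 did, and cox4 ras2 ended above coq2 ras2 in every one of the 7. Without the second coq2 ras2 library the FIT3 difference was -9.29, and without the first it was -6.41. Strains that keep RAS2 also differed widely from each other in TIS11 and FIT2 at 0 h. Among them mean TIS11 ran from 8.09 TPM in tco89 to 247 TPM in coq2 tco89. Mean FIT2 ran from 45.3 to 7796 TPM in the same strains.

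**Figure D5:**
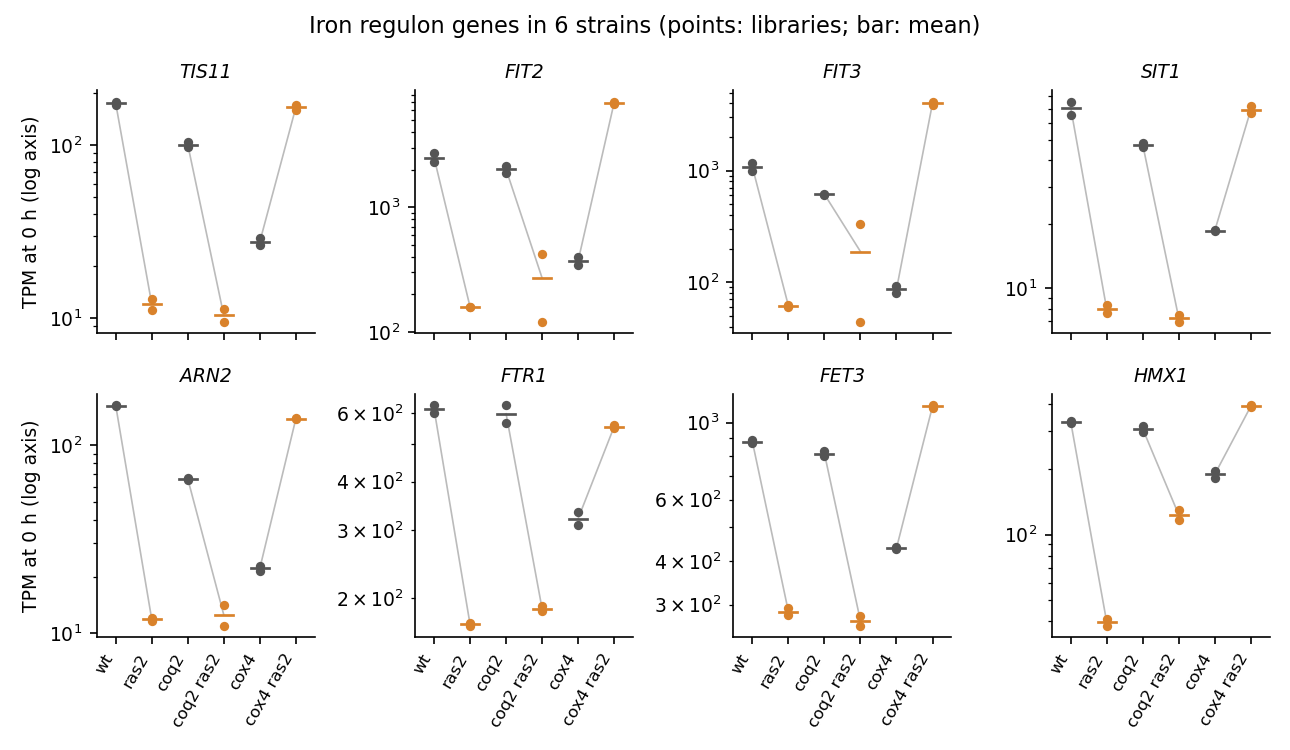
Level in each library (points) and mean (bars) of 8 iron regulon genes at 0 h in wt, coq2 and cox4 (grey) and in the ras2 derivative of each (orange), in TPM on log axes, with a line from each strain to its derivative. The lines fall in wt and coq2 and climb in cox4, where TIS11 went from 26.3 and 29 to 172 and 159 TPM.

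Other genes separated coq2 from cox4. INO1, the inositol phosphate synthase gene, stood at 17.2 and 17.2 TPM in coq2 and 13.7 and 16.5 TPM in coq2 ras2, and at 10.8 and 10.3 TPM in cox4 and 534 and 548 TPM in cox4 ras2, a difference of -5.74. HSP26 rose from 32.1 and 35.5 to 2399 and 2466 TPM in cox4 ras2, more than in coq2 (a difference of -3.58), and 9 of the 40 stress genes rose more in cox4 past the threshold while none rose less. Ribosome biogenesis genes fell in 72 of 98 cases in cox4 ras2 (59 with median-ratio scaling) and in none in coq2 ras2. The test of the difference called 6 of the 98 more positive in coq2, where 1.06% of all genes were. On the adjusted p alone 59 of the 98 were more positive, where 6.8% of all genes were. The median difference was 0.73, against 0.09 over all genes. The amino acid permease gene GNP1 and the ammonium exporter gene ATO3 fell in cox4 ras2, from 41.2 and 42.6 to 5.91 and 6.73 TPM and from 201 and 213 to 51.8 and 52.1 TPM. In the coq2 pair GNP1 read 29.1 and 31.2 TPM against 32.8 and 30.5 TPM and ATO3 110 and 114 TPM against 118 and 107 TPM. The difference for GNP1 was 2.62 and that for ATO3 1.98. The respiratory gene QCR8 rose in coq2 ras2 and read 243 and 233 against 310 and 297 TPM in the cox4 pair, a difference of 1.00, and CYC1 fell in cox4 ras2, from 1575 and 1602 to 714 and 729 TPM, a difference of 1.59.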

How the data were processed

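RNA was measured in 71 libraries of yeast cultures. Libraries were stranded, from polyadenylated RNA after ribosomal RNA removal, per the labels' protocols. Salmon 0.9.1, bcl2fastq 2.20.0.422 and sacCer3 appear in the submitters' processing notes. The deposited TPM values, as the authors scaled them, sum to between 1000003 and 1000010 per library, with a floor of 0.1 TPM. TPM keeps no depth. Column names carry no replicate number.

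Genes reaching 1 TPM in 2 or more libraries (5766 of 5803) entered the tests. One limma 3.58.1 model (R 4.3.3) with a mean for each of 36 groups was fitted to log2(TPM + 1) over all libraries (35 residual degrees of freedom, intensity trend), with Benjamini-Hochberg adjustment over all genes in each comparison. Interaction terms tested the difference between changes. The fit was tested on simulated data. The members and lists were chosen with earlier results of these data known.

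Named genes were the deleted genes and their neighbours, RAS1 and called Ras pathway members, the 15 largest rises and falls (standard name, at least 10 TPM in a group, no overlap between libraries), up to 5 called members per list and direction, and the 6 largest called genes per direction of each interaction. Others named for comparison (uncalled list members, the standing-apart genes, the smaller list rises and QCR8, CYC1 and FET3 in the cox4 test) were chosen after their values were seen. Names and promoters come from the RefSeq R64 assembly (5792 names matched). No table of promoters was used: windows were cut from the genome, 300 bases ending 50 bases before the gene start, and both strands searched. Near-identical copies (95% identity, 80% of the length) of 104 named genes were sought with blastn 2.17.0, and 9 had one. One result of the Ras pathway list is not reported here.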

Additional observations from a re-analysis of the deposited data

Results flagged for a closer look

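A set of 12 genes was picked out because the change after RAS2 loss in coq2 differed from that in wild type at 0 h by the interaction test, given as log2 differences (coq2 background minus wild-type background). The change was more positive in coq2 for YIR042C (2.81), YLR162W (2.40), ZRT1 (2.21), HMX1 (1.73), DAL5 (1.35) and ARN2 (1.35). It was more negative for YRF1-1 (-1.68), YLL066W-B (-1.42), FMP16 (-1.26), YCL048W-A (-1.25), YRO2 (-1.22) and YHR219W (-1.13). YLR162W rests on 1 wt library, where it read 110 TPM against 12.1 TPM in the other, and its difference was 0.86 without that library.

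Another 12 were picked out in the same way against the cox4 background. The change was more positive in coq2 for ENA2 (3.25), YIR042C (2.77), GNP1 (2.62), the alpha pheromone gene MF(ALPHA)2 (2.12), ATO3 (1.98) and YER138W-A (1.85). It was more negative for FIT3 (-7.85), FIT2 (-7.37), INO1 (-5.74), TIS11 (-5.70), ARN2 (-4.91) and SIT1 (-4.39). ENA2, a sodium pump gene at 0.1 and 0.574 TPM in cox4 ras2, is 99.2% identical to ENA5, and YER138W-A has copies across the genome, so neither value can be assigned to 1 locus. MF(ALPHA)2 stood at 1841 and 1920 TPM in cox4 and at 724 and 790 TPM in coq2, so the single mutants already differed.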

How the results depend on the processing

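No paired analysis was possible because the columns carry no replicate number, so a fit with a replicate block was not run. Without the fold minimum, the comparison of coq2 ras2 with coq2 called 1557 genes (894 higher, 663 lower), the interaction with wild type 51 (30 and 21) and that with cox4 866 (392 and 474). With each library left out in turn, the counts ran from 215 to 281 for coq2 ras2 against coq2 (181 to 247 higher, 28 to 34 lower), from 17 to 27 for the interaction with wild type (7 to 21 and 6 to 10) and from 135 to 202 for that with cox4 (35 to 107 and 90 to 103). The 27 and 21 came without the first coq2 ras2 library, the 107 and 35 without the first and second coq2 library, and 39 without the second cox4 ras2 library; the cause was not tested. Respiratory genes risen ran from 3 (without the second coq2 library) to 6, iron genes fallen from 12 to 13, stress genes risen from 30 to 31 and phosphate genes fallen from 3 to 4. These list alternatives were chosen after seeing the data. Other pseudocounts, filters, scalings and fits kept each total within 1.5 times. Of 114 named values, 30 lost their call under at least 1 alternative and none reversed. Depth is unknown, so no counting error can be given for genes near the floor of 0.1 TPM.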
